A study of Homo sapiens with 402 samples.

Results

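The mitotic genes are 44 genes that a cell transcribes in G2 and mitosis, and their RNA is a common reading of how many cells in a culture are dividing. They were taken by name as rows of the count tables. All 44 were among the 34718 gene symbols of the other 4 plates, and 43 were among the 15081 symbols of the plate that carried DDE, where NUSAP1 was not analysed. The members were ordered by role: the proliferation marker MKI67 and the topoisomerase TOP2A, the cyclins with CDK1 and its activator CDC25C, the Polo and Aurora kinases with survivin (BIRC5), the spindle checkpoint, the anaphase promoting complex with securin, the centromere and kinetochore, the kinesins, the spindle and microtubule binding proteins, the cytokinesis proteins and the helicase PIF1.

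RNA of these genes is low in resting cells. It rises in late S phase and G2 under transcription factors that act through the MuvB complex, B-MYB (MYBL2) and FOXM1. In resting cells and after p53 activation, MuvB instead joins a repressor complex, in part through the CDK inhibitor p21 (CDKN1A), and the same promoters are shut. MuvB binds a short promoter element called the cell cycle homology region (CHR), and many of these promoters also hold CCAAT boxes, which the factor NF-Y binds.

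The cells were wild-type MCF10A, a non-tumorigenic epithelial line from human breast, all at passage 105, exposed for 48 h in 384-well plates to 1 of 21 chemicals at 0.025, 0.25, 2.5 or 25 µM and sequenced with plexWell, which barcodes the cDNA of each well and pools the wells of a plate. The question was how exposure changed gene expression across doses. The metals mercury, lead, copper, cadmium and arsenic shared plate 3153-AT and its 15 water controls. The bisphenols BPA, BPF and BPS and the chemicals labelled PPB and MPB (0.025 µM of each with 3 libraries) shared plate 3206-AT and 15 controls in DMSO. Thiram, the polychlorinated biphenyls PCB187 and PCB153, DCP_25 and DCB_14 were set against 15 DMSO controls of plate 3284-AT. On plate 3240-AT phenanthrene, PFOS, PFNA and PFDA were set against 12 DMSO controls and PFOA against 4 water controls. DDE was labelled DMSO and a plate of its own. The 8 controls used for it were labelled water and plate 3153-AT, and were put with DDE because their titles carry its plate barcode and not that of plate 3153-AT. DDE and solvent cannot be told apart. The labels call the 4 libraries of a dose biological replicates without naming separate cultures, so p-values measure the spread between wells. As bulk RNA, fewer dividing cells and less RNA per dividing cell cannot be told apart.

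Of 402 libraries, 401 entered the fits. The median library held 13.8 M (mega) counts on plate 3153-AT, 12.6 M on 3206-AT, 11.9 M on 3240-AT, 13.3 M on 3284-AT and 6.42 M on the DDE plate. No library was identical to another of its plate. The basal mammary markers summed to between 2442 and 2831 CPM (a gene's counts per 1 M counts of its library) in the controls of those 4 plates, and 8 of the 10, all but TP63 and CDH1, were at 10 CPM or more on all 4. The hormone receptor gene ESR1 was at 0.338 CPM in the controls of plate 3153-AT, PGR was at 0, and the other 3 luminal genes of that list, KRT8, KRT18 and GATA3, were at 10 CPM or more on all 4 plates, the 5 summing to between 818 and 1032 CPM. The immune genes CD3E and LYZ were at 0. On the same plate COL1A1, a fibroblast gene, was at 1.6 CPM, while DCN was at 85.03 CPM and CD14 at 49.8 CPM. Cadmium at 25 µM had 2 libraries in the fit, because a further library labelled cadmium 25 µM carried the barcode of another plate.

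PRC1 and NUSAP1 were sparse, with medians of 11 and 5 counts in the controls of plate 3153-AT against 258 or more for the other members. In the GENCODE v29 annotation (GRCh38), 57.6% of the exon bases of PRC1 and 62.2% of those of NUSAP1 lie under exons of another gene on the same strand. BUB1B shares 10.2% of its exon bases with BUB1B-PAK6 and CENPA shares 6.96% with SLC35F6 on the same strand. PLK1 lies over exons of ERN2 and AC008870.3 on the other strand with 12.5% of its exon bases, CCNA2 and CKAP2L lie over other genes there with 9.08% each, and CDC25C with 8.78%. Strand handling in the counting is not given in the sources used here, so the values of PLK1, CCNA2, CKAP2L and CDC25C are uncertain. Those of PRC1, NUSAP1, BUB1B and CENPA, which overlap on the same strand, are uncertain whatever the strand handling.

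The promoters are shown first because the members share features there that their choice by role did not use. Promoter sequences from RefSeq (GRCh38.p14) were found for 38 of the 44 members. The letters TTTGAA or TTTAAA, which are the CHR, were searched on both strands. They stood between 100 bases before and 50 bases after the gene start in 30 of the 38 promoters, 78.9%, against 11.2% of all 35116 promoters in the table. CCAAT on either strand stood between 250 bases before and 50 bases after the start in 30 of the 38, again 78.9%, against 34.6% of all promoters. Both features were held by 24 of the 38, 63.2%, against 4.49% of all. Of 42 promoters of further mitotic genes, 24 (57.1%) held the CHR letters in that window and 29 (69.0%) held CCAAT. Of 22 promoters of S phase genes, 3 (13.6%) held the CHR letters there and 14 (63.6%) held CCAAT. A match is a description of the letters and not evidence that a factor binds there.

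The windows below hold the 150 bases before the start of 8 members, written 5′ to 3′ on the strand of the gene, with CHR letters and CCAAT (or its reverse complement ATTGG) in capitals. CCNB1, CCNB2, PLK1 and KIF20A show CCAAT boxes upstream of the last CHR, and CDC20 shows 1 on each side of it. MKI67 and PIF1 are shown because they behave apart from most members in the results, and CKAP2 because it holds neither feature. They lie at chr5:69167000-69167149, plus strand (CCNB1), chr15:59104996-59105145, plus strand (CCNB2), chr16:23678739-23678888, plus strand (PLK1), chr1:43358831-43358980, plus strand (CDC20), chr5:138178962-138179111, plus strand (KIF20A), chr10:128126424-128126573, minus strand (MKI67), chr15:64825648-64825797, minus strand (PIF1) and chr13:52455838-52455987, plus strand (CKAP2).
CCNB1: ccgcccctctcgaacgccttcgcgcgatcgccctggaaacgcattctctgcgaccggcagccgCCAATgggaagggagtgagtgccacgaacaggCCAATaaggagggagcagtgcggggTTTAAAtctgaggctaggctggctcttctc
CCNB2: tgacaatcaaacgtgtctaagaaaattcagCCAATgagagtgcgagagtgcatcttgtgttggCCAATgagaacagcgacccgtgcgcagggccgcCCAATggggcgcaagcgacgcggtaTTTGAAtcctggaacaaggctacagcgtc
PLK1: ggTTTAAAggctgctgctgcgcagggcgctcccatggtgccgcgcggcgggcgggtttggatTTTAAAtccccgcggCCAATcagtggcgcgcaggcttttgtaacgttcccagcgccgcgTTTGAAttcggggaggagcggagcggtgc
CDC20: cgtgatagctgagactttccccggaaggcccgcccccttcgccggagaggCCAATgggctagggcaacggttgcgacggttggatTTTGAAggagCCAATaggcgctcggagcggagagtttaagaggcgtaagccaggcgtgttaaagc
KIF20A: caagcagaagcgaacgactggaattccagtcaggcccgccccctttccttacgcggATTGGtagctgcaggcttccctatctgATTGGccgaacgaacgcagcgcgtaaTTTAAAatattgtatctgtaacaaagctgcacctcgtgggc
MKI67: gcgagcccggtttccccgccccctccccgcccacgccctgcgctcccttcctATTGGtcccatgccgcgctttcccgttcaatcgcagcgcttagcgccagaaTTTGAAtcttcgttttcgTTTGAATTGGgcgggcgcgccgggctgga
PIF1: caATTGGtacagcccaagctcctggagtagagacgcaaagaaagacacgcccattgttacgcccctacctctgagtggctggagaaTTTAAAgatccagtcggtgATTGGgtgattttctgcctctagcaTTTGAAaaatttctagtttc
CKAP2: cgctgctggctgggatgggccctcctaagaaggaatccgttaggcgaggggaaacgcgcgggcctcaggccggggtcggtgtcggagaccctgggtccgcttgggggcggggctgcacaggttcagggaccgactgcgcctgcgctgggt

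In these windows the last CHR begins 30 bases before the start in CCNB1, 29 before it in CCNB2 and PLK1, 41 before it in KIF20A and 65 before it in CDC20. In MKI67 the CHR that begins 29 bases before the start overlaps a reversed CCAAT box, so both are printed as 1 run of capitals. PIF1 holds CHR letters 64 and 20 bases before its start.

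**Figure D1:**
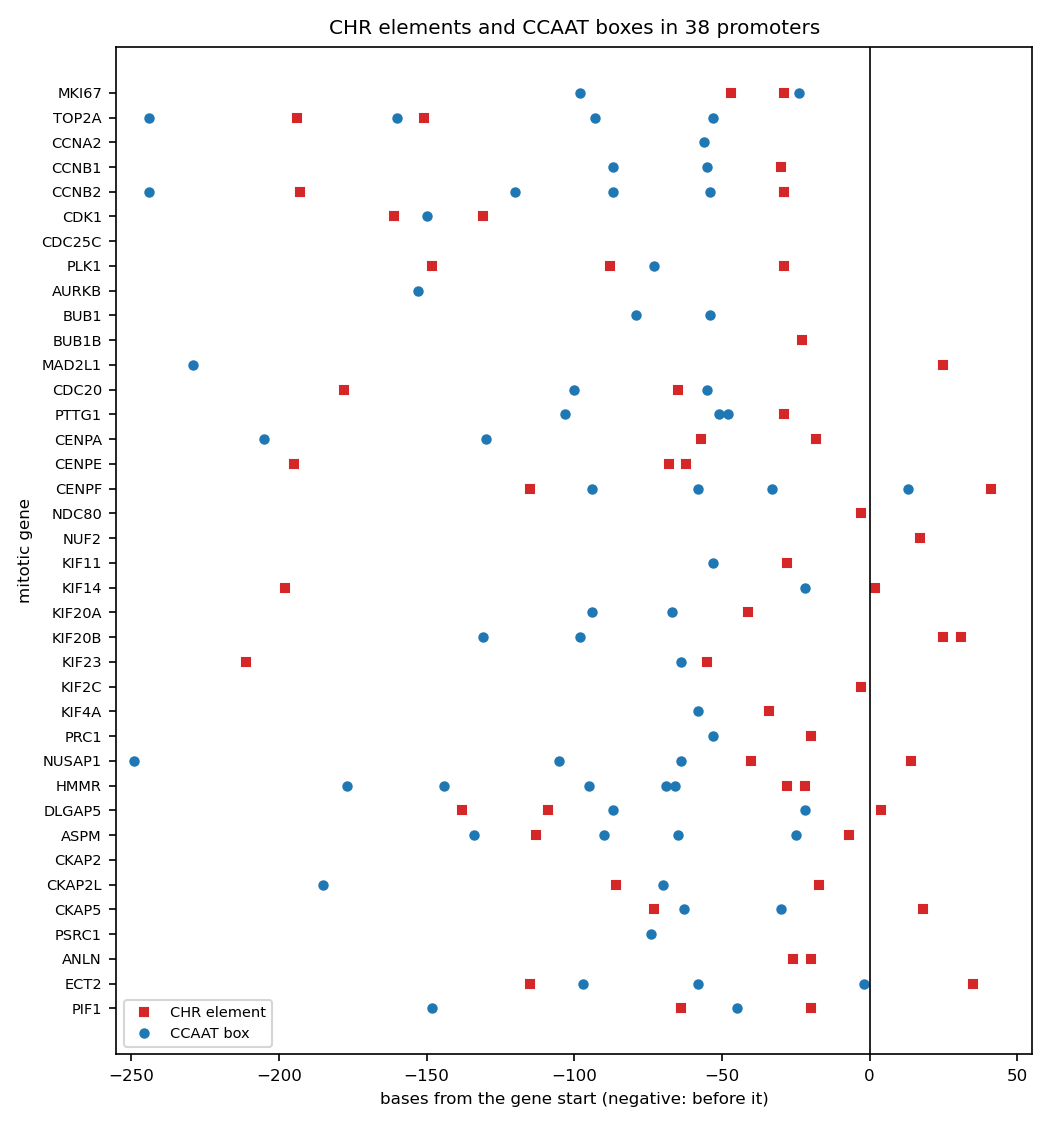
Positions of CHR letters (squares) and CCAAT boxes (circles) in the 38 promoters found, by distance in bases from the gene start, members ordered by role. In 30 promoters CHR letters stand between 100 bases before and 50 bases after the start, and CKAP2 and CDC25C hold neither feature.

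At 25 µM most members were lower than the controls in arsenic, cadmium and thiram, and in DDE all 43 tested were above the controls that share its barcode, though fewer passed the test. A member was called at an adjusted p under 0.05 in edgeR's quasi-likelihood test, with Benjamini-Hochberg adjustment over all genes of a comparison. In arsenic 37 of 44 members were called lower, in cadmium 26, in thiram 28, in copper 4 and in lead 1. In DDE 12 of 43 were called higher. No member was called in the opposite direction in any of these 6 comparisons, and none was called in the other 15 chemicals at 25 µM. At 0.025 µM no member was called in any chemical, at 0.25 µM 4 were and at 2.5 µM 9 were, all of them higher.

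**Figure D2:**
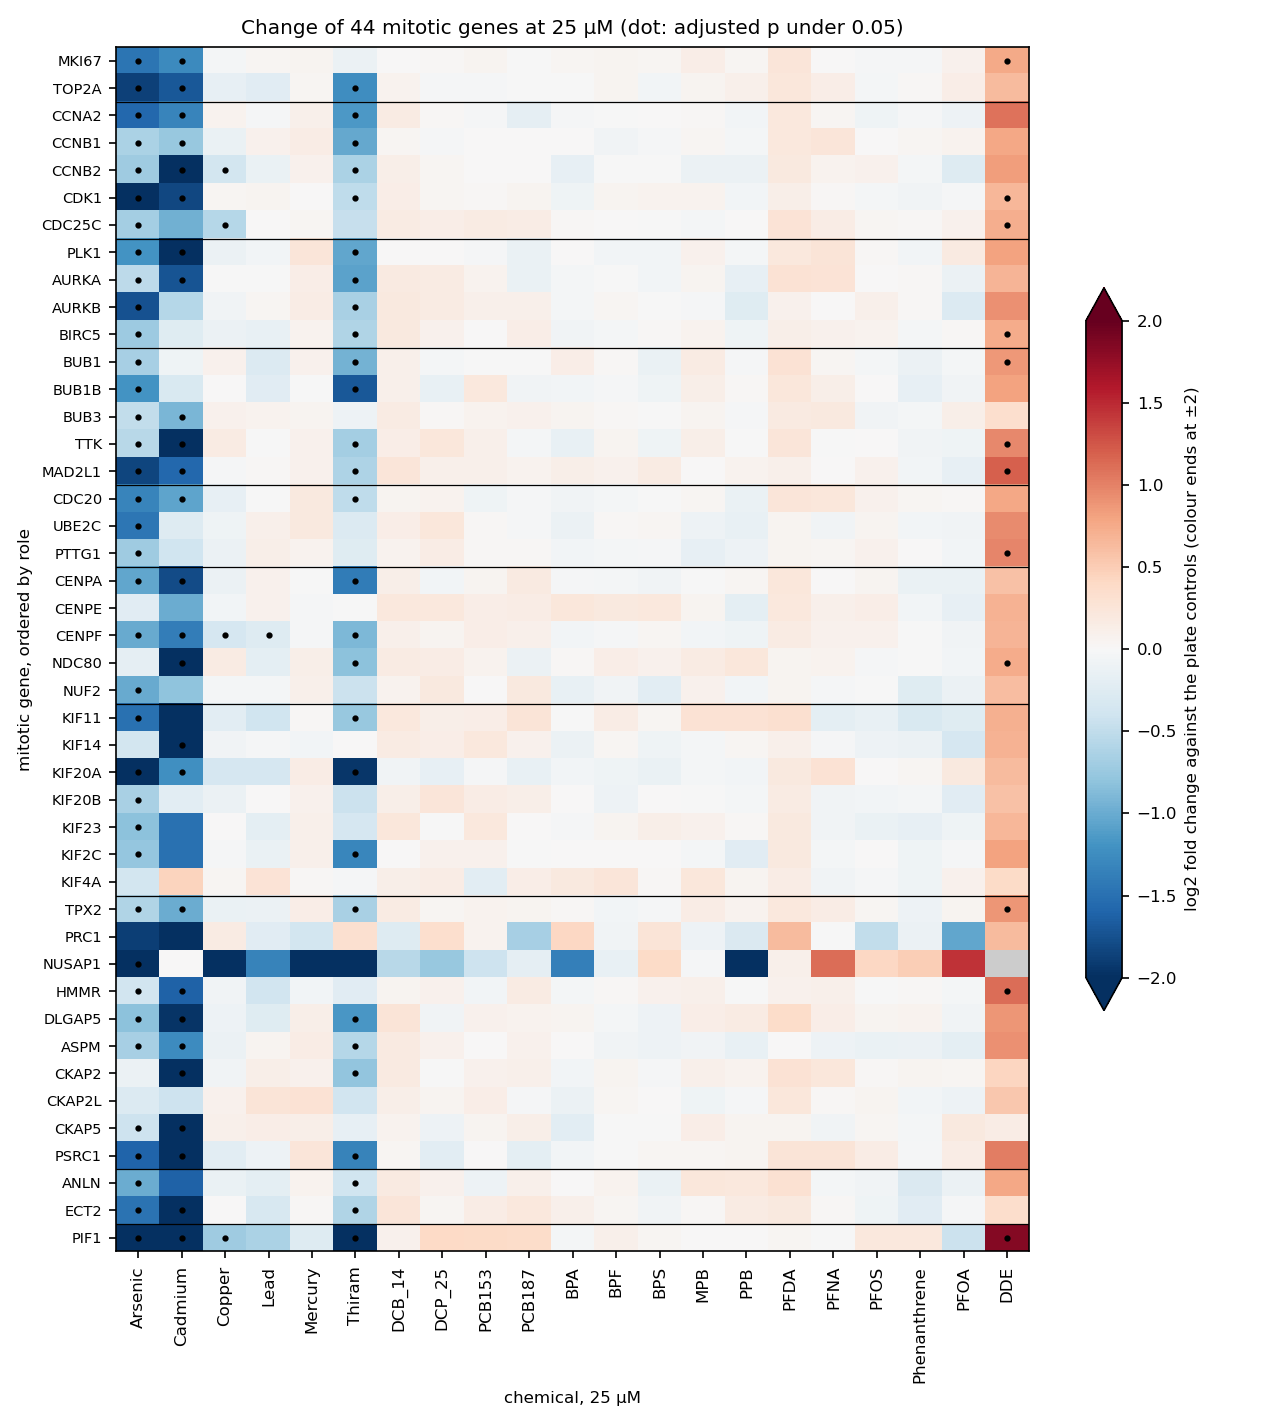
Log2 fold change of each member (rows, by role) at 25 µM in each chemical (columns) against the controls of its plate; colour ends at ±2, a dot marks an adjusted p under 0.05, and grey marks a gene not tested. Arsenic, cadmium and thiram are blue with dots across most roles, DDE is red throughout with 12 dots, and the other columns are near 0.

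Arsenic at 25 µM gave the most called members. All 44 members were below the controls, 37 of them called, where 18.2% of the 24295 genes tested were called lower. Arsenic changed many genes, so abundance matters to this reading: among genes with an average log2 CPM of 4 or more, 42.9% were called lower, beside 36 of the 42 members of that abundance. The median log2 fold change of those 42 was -0.80, and that of all 7412 such genes was -0.21.

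MKI67, the nuclear antigen Ki-67, stood at 92.4, 66.8, 76.7 and 60.1 CPM in the 4 arsenic libraries and between 178 and 245 CPM (median 200.2) in the 15 controls. All 4 libraries lay below every control, and the log2 fold change was -1.45 ± 0.14 (SE, n = 4; edgeR adjusted p = 3.4e-15). TOP2A, which untangles sister chromatids, stood at 58.6, 58.04, 51.2 and 56.9 CPM against 159 to 261 (median 206) in controls, a log2 fold change of -1.86 ± 0.13 (edgeR adjusted p = 1.47e-23). In neither gene did an arsenic library reach the lowest control.

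CDK1, the kinase that drives entry into mitosis, stood at 32.4, 31.7, 33.4 and 32.5 CPM against 146 to 259 (median 173) in controls. Its log2 fold change was -2.49 ± 0.17 (edgeR adjusted p = 1.42e-24), a 5.61-fold fall. Its partner CCNB1, cyclin B1, fell much less, from 292 to 387 CPM (median 325) in controls to 264, 205, 186 and 207 CPM, a log2 fold change of -0.63 ± 0.12 (edgeR adjusted p = 8.49e-06). All 5 members of this role were called lower, CDC25C with 2 of its 4 libraries below every control.

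PLK1, the Polo kinase of centrosomes and kinetochores, stood at 111, 103, 86.9 and 91.8 CPM against 193 to 307 (median 218), a log2 fold change of -1.19 ± 0.14 (edgeR adjusted p = 1.99e-12). BIRC5, survivin of the chromosomal passenger complex, stood at 128, 102, 99.2 and 103 CPM against 147 to 208 (median 180), with a log2 fold change of -0.73 ± 0.13 (edgeR adjusted p = 1.14e-06). CDC20, which activates the anaphase promoting complex, stood at 191, 168, 149 and 126 CPM against 337 to 478 (median 397), with a log2 fold change of -1.32 ± 0.14 (edgeR adjusted p = 7.31e-14). No arsenic library of these 3 genes reached the lowest control.

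PIF1, a DNA helicase, had the largest change of a member with more than a few counts: 5.47, 5.03, 2.73 and 3.99 CPM against 13.3 to 35.03 (median 25.0), a log2 fold change of -2.63 ± 0.31 (edgeR adjusted p = 9.94e-12). NUSAP1 was at 0 counts in all 4 libraries and at 123 counts over the 15 controls, at least 8.34-fold lower against a floor of 3 counts over the group. The smallest called changes were HMMR, a hyaluronan receptor that also binds spindle microtubules, at -0.38 ± 0.14 (adjusted p = 0.0234 in edgeR), and CKAP5, a microtubule polymerase, at -0.42 ± 0.12 (adjusted p = 0.00192 in edgeR). HMMR overlapped the controls, with 2 of 4 libraries below all of them, and in replicates 1 and 2 against the lower-numbered controls its change was 0.01 ± 0.15.

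Every member of the 6 following roles was called lower in arsenic, as was PIF1: the proliferation marker with the topoisomerase, the cyclins, the Polo and Aurora kinases with survivin, the spindle checkpoint, the anaphase promoting complex with securin, and cytokinesis. The 7 members not called were CENPE (-0.22) and NDC80 (-0.18) of the kinetochore, the kinesins KIF14 (-0.37) and KIF4A (-0.36), and PRC1 (-1.89), CKAP2 (-0.12) and CKAP2L (-0.28) of the spindle.

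Of the other lists, 33 of 50 further mitotic genes and 22 of 25 S phase genes were called lower in arsenic, with 2 and 0 called higher. Among activators of the mitotic program 6 of 12 were lower and 2 higher. FOXM1 was at a log2 fold change of -1.11 ± 0.23, MYBL2 at -1.59 ± 0.21 and the ribonucleotide reductase subunit RRM2, an S phase gene, at -1.33 ± 0.22, all called. CDKN1A, which encodes p21, stood at 941, 819, 1097 and 1037 CPM against 165 to 230 (median 192) in controls, a log2 fold change of 2.34 ± 0.10 (edgeR adjusted p = 2.12e-38). Of the 13 CDK inhibitors and repressors tested 3 were higher, CDKN1A among them, and 7 were lower.

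The arsenic libraries held 7.27 to 11.98 M counts and 5.25 to 7.68% mitochondrial counts, beside 7.87 to 11.4% in the controls; the part of this in the result was not tested. On this plate dosed replicates 1 and 2 were put with the lower-numbered controls and replicates 3 and 4 with the higher-numbered ones. The labels do not give this grouping. In replicates 1 and 2 against their controls 30 members were called, with a median of -0.59, where 17.6% of all genes were called lower. In replicates 3 and 4 against theirs 39 were called, with a median of -1.08, where 14% of all genes were called lower. A test of that difference called 6 members, where 0.7% of all genes were called. They were CCNA2, ANLN, MAD2L1, KIF2C, AURKB and CDC20, each with the smaller fall in replicates 1 and 2.

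Thiram, a dithiocarbamate fungicide, lowered 28 of 44 members at 25 µM, where 12.2% of the 21307 genes tested were called lower. All 28 were among the 42 members with an average log2 CPM of 4 or more, a class in which 29.6% of genes were called lower. The median log2 fold change of the 42 was -0.62, and that of all genes in the class was -0.13.

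CCNB1 stood at 165, 129, 165 and 286 CPM in thiram and between 317 and 431 CPM (median 357) in the 15 controls, a log2 fold change of -1.03 ± 0.11 (edgeR adjusted p = 7.76e-14). CDK1 stood at 131, 125, 99.7 and 204 CPM against 164 to 236 (median 184), and its change of -0.50 ± 0.13 (edgeR adjusted p = 0.00138) was the second smallest of those called. CCNB1 was thus below every control in all 4 libraries and CDK1 in 3 of 4. In arsenic the order of these partners was the other way round, with CDK1 at -2.49 and CCNB1 at -0.63; that contrast between plates was not tested.

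PLK1 stood at 146, 107, 113 and 128 CPM against 226 to 293 (median 246), with a log2 fold change of -1.04 ± 0.11 (edgeR adjusted p = 2.8e-14). TOP2A stood at 100.5, 94.5, 90.6 and 182 CPM against 207 to 325 (median 252), with a log2 fold change of -1.24 ± 0.13 (edgeR adjusted p = 3.46e-14). CDC20 stood at 309.9, 259.7, 358 and 322 CPM against 377 to 496 (median 443), with a log2 fold change of -0.51 ± 0.09 (edgeR adjusted p = 1.15e-06). No thiram library of these 3 genes reached the lowest control. BIRC5 stood at 144, 117, 174 and 183 CPM against 206 to 310 (median 224), a log2 fold change of -0.61 ± 0.12 (edgeR adjusted p = 3.45e-05), again without overlap.

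The largest thiram changes were in PIF1, at 3.26, 5.8, 13.99 and 1.24 CPM against 17.5 to 61.4 (median 30.0), a log2 fold change of -2.20 ± 0.35, and in KIF20A, a kinesin needed for cytokinesis, at 56.6, 58.3, 50.2 and 41.4 CPM against 166 to 223 (median 206), a log2 fold change of -1.95 ± 0.16. Their adjusted p-values in edgeR were 1.98e-07 and 2.34e-20. Of the called members ANLN, the cytokinetic ring protein anillin, had the smallest change, at -0.39 ± 0.15 (adjusted p = 0.044 in edgeR), and all 4 of its libraries lay within the range of the controls.

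MKI67 stood apart in thiram. Its libraries were at 114, 137, 233 and 379 CPM against 196 to 267 (median 220) in controls, so 2 lay below every control, 1 within their range and 1 above it. The log2 fold change was -0.12 ± 0.13 (edgeR adjusted p = 0.593). Replicates 1 and 2 against the lower-numbered controls gave -0.74 ± 0.13 (edgeR adjusted p = 4.32e-06), and replicates 3 and 4 against the higher-numbered controls gave 0.29 ± 0.14 (edgeR adjusted p = 0.199). MKI67 was the 1 member for which the difference between these changes was called, at -1.03 ± 0.20 (edgeR adjusted p = 0.000594), where 1.02% of all genes were called.

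In thiram the kinases and survivin were called lower in 4 of 4 members, the spindle checkpoint in 4 of 5, the cyclins with CDK1 in 4 of 5 and cytokinesis in 2 of 2, while the kinesins were called in 3 of 7 and the anaphase promoting complex with securin in 1 of 3. The members with a change nearest 0 were CENPE (-0.01), KIF14 (0.01) and KIF4A (-0.02), none of which was called in arsenic. The called members of arsenic and thiram had 26 genes in common, 70.3% of those of arsenic and 92.9% of those of thiram. CKAP2 and NDC80 were called in thiram and not in arsenic. Across the 42 members with the higher counts, the changes in the 2 chemicals correlated with r = 0.53 (rho = 0.45), as a description across genes of 2 plates that share no library.

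**Figure D3:**
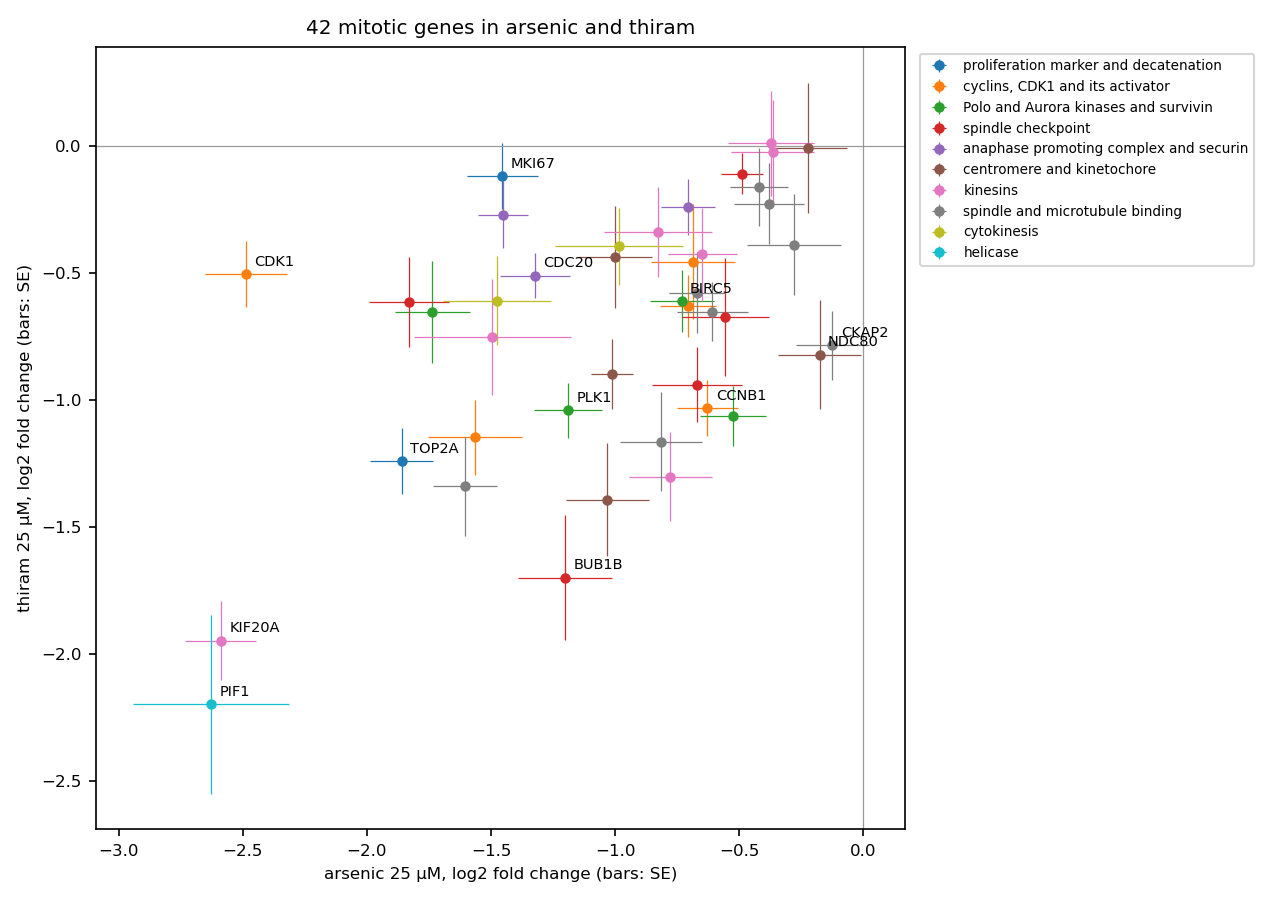
Log2 fold change at 25 µM in arsenic (x axis) and thiram (y axis) for 42 members coloured by role, with bars of 1 SE. PIF1 and KIF20A are lowest in both, CDK1 is at -2.49 in arsenic and -0.50 in thiram, and MKI67 lies near 0 in thiram.

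Among the other lists 28 of 50 further mitotic genes, 12 of 25 S phase genes and 3 of 12 activators were called lower in thiram, with 3, 1 and 1 called higher. FOXM1 was called at -0.69 ± 0.14 and RRM2 at -0.55 ± 0.13, and MYBL2 was at -0.17 ± 0.10 and not called. CDKN1A stood at 692, 597, 444 and 350 CPM against 209 to 287 (median 221) in controls, a log2 fold change of 1.20 ± 0.12 (edgeR adjusted p = 7.22e-15). Of the 13 CDK inhibitors and repressors tested, 5 were higher and 4 lower. The thiram libraries held 2.46 to 6.29 M counts and 4.56 to 10.7% mitochondrial counts, beside 2.31 to 22.5 M and 7.5 to 10.2% in the controls; replicate 4, with the fewest counts, was the highest for MKI67, TOP2A, CCNB1 and CDK1. Whether depth has a part in that was not tested.

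Cadmium at 25 µM was read from 2 libraries of 1.43 and 1.45 M counts. In these 39.3 and 46.8% of counts were mitochondrial, against 7.87 to 11.4% in the 15 controls. Both belong to the lower-numbered set, while the controls held both sets. In the higher-numbered controls of this plate 9 members were higher and 1 was lower (median difference 0.28). Library number and dose were thus unbalanced in this comparison. Of 44 members 26 were called lower and none higher, where 5.38% of all genes tested, and 17.5% of those with an average log2 CPM of 4 or more, were called lower. The median log2 fold change of the 42 members of that abundance was -1.44, against -0.38 for all genes of the class. Over all genes tested, sparse ones included, the median was -1.42. With the members at 0 counts set to their bound, the members' median was -1.35. The part of the low counts and the mitochondrial share in these values was not tested.

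MKI67 stood at 102 and 64.4 CPM in the cadmium libraries and between 178 and 245 CPM in the controls, a log2 fold change of -1.27 ± 0.31 (n = 2; edgeR adjusted p = 0.00218). CDK1 stood at 79.1 and 21.0 CPM against 146 to 259, with -1.83 ± 0.36 (edgeR adjusted p = 0.000101). CCNB1 stood at 153 and 245 CPM against 292 to 387, with -0.76 ± 0.23 (edgeR adjusted p = 0.0191), the smallest of the called changes. Both cadmium libraries lay below every control in these genes, and in CDK1 they lay far apart, where the 4 arsenic libraries had lain close together.

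PLK1 stood at 56.5 and 37.8 CPM against 193 to 307 (log2 fold change -2.24 ± 0.35, edgeR adjusted p = 5.49e-07). TOP2A stood at 51.5 and 75.6 CPM against 159 to 261 (-1.70 ± 0.29, edgeR adjusted p = 3.71e-06). CDC20 stood at 248.6 and 126 CPM against 337 to 478 (-1.06 ± 0.25, edgeR adjusted p = 0.00159). BIRC5, in contrast to these, stood at 142 and 162 CPM against 147 to 208, with 1 library inside the range of the controls (-0.24 ± 0.26, edgeR adjusted p = 0.889).

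CKAP2, a spindle protein, and PIF1 were at 0 counts in both libraries and at 70.1 and 28.4 CPM over the pooled controls. Against a floor of 3 counts over the group, CKAP2 was at least 35.3-fold lower and PIF1 at least 14.3-fold lower. PSRC1, a spindle protein named here after its values were seen, had 3 counts in all and was 32.7-fold lower, with an exact 95% counting interval of 11.2 to 158.5-fold. The other small called change was BUB3 of the spindle checkpoint, at -0.92 ± 0.17 (edgeR adjusted p = 2.8e-05). In library 1, 7 members were at 0 counts, and in library 2, 4 members were, so single zeros at this depth say little.

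The library labelled cadmium 25 µM that carried the barcode of plate 3284-AT differed from both. Its well barcode is the one that controls 14, 30 and 46 carry on plates 3153-AT, 3206-AT and 3240-AT. The control numbers of plate 3284-AT skip from 61 to 63. Whether this well held cadmium or was a DMSO control cannot be told from the labels. The library held 1.28 M counts, 9.99% of them mitochondrial, and no member was at 0. In counts scaled to the library total, 7 members lay below the range of the 15 water controls, 24 within it and 13 above it; MKI67 had 202 counts and lay below it, and CCNB1 had 572 counts and lay above it. With this library in the fit, 13 members were called lower and the median was -0.55. Without library 1, 17 were called, and without library 2, 7 were.

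In cadmium 10 of 50 further mitotic genes, 6 of 25 S phase genes and 1 of 12 activators were called lower, with 1, 0 and 0 called higher. FOXM1 (-0.86 ± 0.62), MYBL2 (-0.33 ± 0.38) and RRM2 (-0.36 ± 0.37) were not called. CDKN1A stood at 342 and 454 CPM against 165 to 230, a log2 fold change of 1.04 ± 0.19 (edgeR adjusted p = 1.35e-05). Among the 13 CDK inhibitors and repressors tested 2 were higher and 3 lower.

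The direct test between arsenic and cadmium at 25 µM called 10 members. It set arsenic libraries of both number sets against cadmium libraries of the lower-numbered set alone. Higher in arsenic were 7 of them, where 4.24% of all genes were, and lower were 3, where 4.32% were. The 3 that were lower in arsenic were KIF20A (difference -1.36 ± 0.35), UBE2C (-1.20 ± 0.21) and AURKB (-1.16 ± 0.36), and the 7 that were higher were CKAP2, PSRC1, KIF14, NDC80, CKAP5, CCNB2 and AURKA. The count was 4 without replicate 1, 4 without replicate 2 and 22 by DESeq2.

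**Figure D4:**
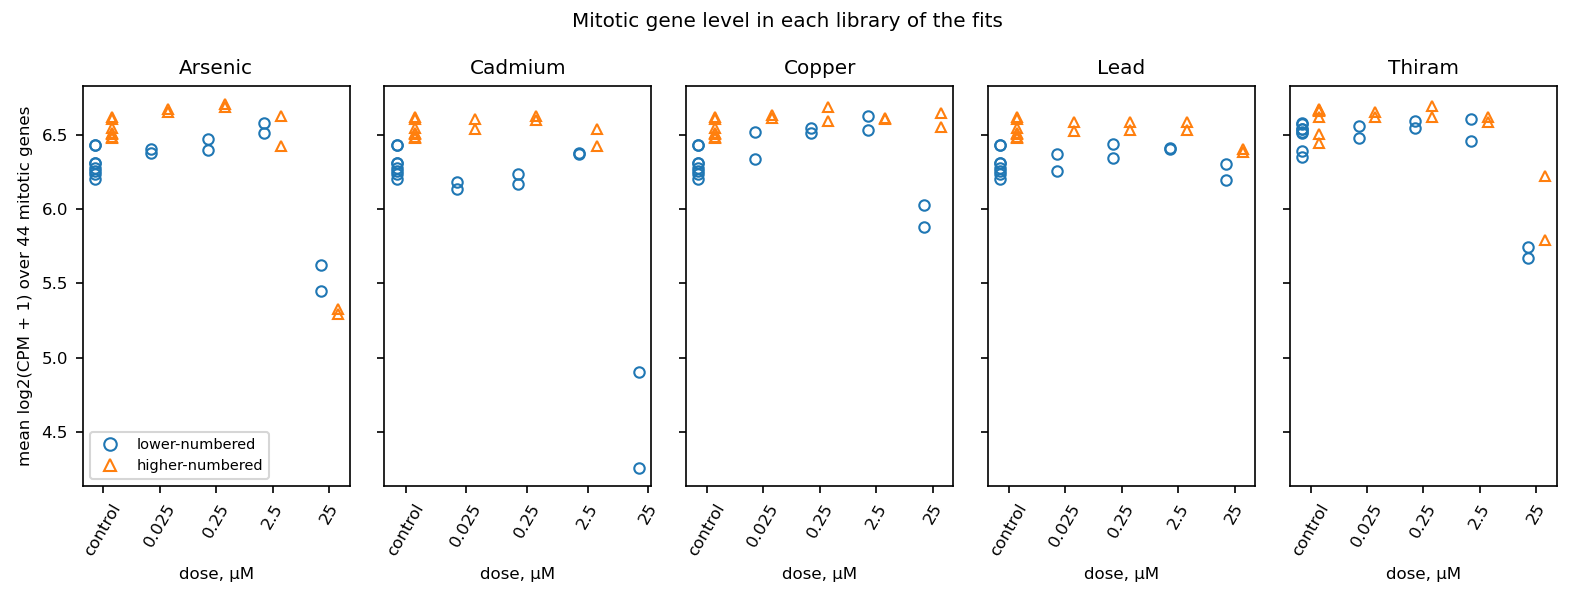
Mean log2(CPM + 1) over the 44 members in each library of the fits (y axis) by dose (x axis) for arsenic, cadmium, copper, lead and thiram; circles are lower-numbered and triangles higher-numbered libraries. At 25 µM the plotted libraries of arsenic, cadmium and thiram lie below all their controls, as do the 2 lower-numbered libraries of copper and replicate 1 of lead, which at 6.195 lies just under the lowest control at 6.201; the cadmium library with another barcode is not plotted.

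Copper at 25 µM gave 4 called members, all lower, where 2.21% of all genes were. CENPF, a kinetochore protein, stood at 133, 148, 199.9 and 182 CPM against 187 to 240 in controls (log2 fold change -0.34 ± 0.08, edgeR adjusted p = 0.00247). CCNB2, cyclin B2, stood at 92.1, 96.4, 138 and 139 CPM against 114 to 194 (-0.37 ± 0.11, edgeR adjusted p = 0.0239). CDC25C, the phosphatase that activates CDK1, was at -0.56 ± 0.15 (adjusted p = 0.0126 in edgeR), and PIF1 was at -0.71 ± 0.21 (adjusted p = 0.0268 in edgeR). Replicates 1 and 2 lay below every control in CENPF and CCNB2, replicate 4 did so in CENPF as well, and no PIF1 library left the range of the controls.

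This split ran through most members in copper. The mean log2(CPM + 1) over the 44 members was 5.88 and 6.03 in replicates 1 and 2, and 6.55 and 6.65 in replicates 3 and 4. The lower-numbered controls lay between 6.20 and 6.43 and the higher-numbered ones between 6.48 and 6.62. Within the lower-numbered libraries 23 members were called lower, where 4.88% of all genes were, and the median was -0.37; within the higher-numbered libraries none was called, 4 had an unadjusted p under 0.05, and the median was 0.05. The difference of the changes was called for 6 members, where 0.543% of all genes were: ASPM, PTTG1, KIF20A, UBE2C, TPX2 and BIRC5. ASPM, a spindle pole protein, had the largest of these differences, -0.72 ± 0.16 (edgeR adjusted p = 0.00899), with -0.52 in the lower-numbered and 0.21 in the higher-numbered libraries. The copper libraries held 12.2 to 21.9 M counts and 7.35 to 9.78% mitochondrial counts, beside 1.93 to 23.9 M and 7.87 to 11.4% in the controls; their part in the split was not tested.

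Without replicate 1 no copper member was called, and without replicate 2, 1 was. Arsenic and copper differed directly in 34 members at 25 µM, all lower in arsenic, where 15.3% of all genes were. CDK1 differed most among them, by -2.52 (95% interval -2.89 to -2.16). That count was 21 without replicate 4.

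Lead at 25 µM gave 1 called member, where 1.7% of all genes were called lower. It was CENPF, at 184, 192, 149 and 171 CPM against 187 to 240 in controls (log2 fold change -0.27 ± 0.08, edgeR adjusted p = 0.0318). Without replicate 1 or replicate 4 it was not called.

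The level of the members depended on library number in the controls themselves. On plate 3153-AT 9 members were higher in the higher-numbered than in the lower-numbered controls, where 2.03% of all genes were, and 1 was lower, where 3.39% were. KIF11, the motor that separates spindle poles, differed most, by 1.08 ± 0.22 (edgeR adjusted p = 0.000836), and PIF1 was the member that was lower, by -0.84 ± 0.23 (edgeR adjusted p = 0.0139). On plate 3206-AT 6 members were higher, where 0.695% of all genes were, led by UBE2C at 0.36 ± 0.07. On plates 3240-AT and 3284-AT no member was called, with median differences of -0.01 and 0.18. What the numbers stand for is not given in the labels.

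DDE is a breakdown product of the insecticide DDT. All 43 members tested were above the 8 controls with the same plate barcode at 25 µM, and 12 were called, where 3.56% of the 13921 genes tested were called higher. Among genes with an average log2 CPM of 4 or more 5.13% were called higher, beside 12 of the 42 members of that abundance. The median log2 fold change of these 42 was 0.76, and that of all such genes was 0.01.

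MKI67 stood at 234, 341, 314 and 359 CPM in DDE and between 90.2 and 231 CPM (median 203) in the 8 controls, a log2 fold change of 0.76 ± 0.19 (edgeR adjusted p = 0.0297). CDK1 stood at 158, 169, 186 and 162 CPM against 40.8 to 137 (median 115), with 0.67 ± 0.21 (edgeR adjusted p = 0.0488). BIRC5 stood at 209.8, 277, 275 and 236 CPM against 47.6 to 224 (median 159), with 0.75 ± 0.23 (edgeR adjusted p = 0.0466). All 4 DDE libraries lay above every control in MKI67 and CDK1, and 3 of 4 did in BIRC5.

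CCNB1 stood at 294, 335, 369 and 343 CPM against 18.9 to 299 (median 237), with 0.78 ± 0.35 (edgeR adjusted p = 0.143). PLK1 stood at 228, 241, 314 and 313 CPM against 18.6 to 237 (median 182), with 0.81 ± 0.32 (edgeR adjusted p = 0.0979). TOP2A stood at 210.2, 303, 301 and 261 CPM against 48.8 to 241 (median 199), with 0.64 ± 0.23 (edgeR adjusted p = 0.079). CDC20 stood at 346, 472, 501 and 529.6 CPM against 57.9 to 367 (median 329), with 0.78 ± 0.27 (edgeR adjusted p = 0.0713). In these 4 genes the change was of the size of the smaller called ones, the lowest control lay far below the median control, and none was called.

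PIF1 had the largest called change, at 19.9, 41.2, 67.4 and 62.5 CPM against 0 to 21.9 (median 15.8), a log2 fold change of 1.84 ± 0.41 (edgeR adjusted p = 0.023). MAD2L1 of the spindle checkpoint came next, at 92.5, 102, 112 and 113 CPM against 8.87 to 70.9 (median 51.3), with 1.20 ± 0.33 (edgeR adjusted p = 0.034). The smallest called changes were those of CDK1 and of CDC25C, the latter at 0.73 ± 0.23 (adjusted p = 0.0496 in edgeR). The other called members were HMMR, PTTG1, TTK, TPX2, BUB1 and NDC80, from 0.74 to 1.11.

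The members' level on the DDE plate followed the library number. The controls were numbered 9 to 16, and the mean log2(CPM + 1) over 43 members was 5.01 in control 9, 4.01 in control 16 and between 5.87 and 6.36 in the other 6. Among the 16 DDE libraries, those numbered 1, 8, 9 and 16 lay between 6.04 and 6.43 and the other 12 between 6.73 and 6.96. So the end numbers of each set of 8 were lowest in both groups, and away from them every DDE library lay above every control. What the end numbers stand for is not given in the labels.

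With libraries 1, 8, 9 and 16 left out, 37 members were called higher at 25 µM, where 9.59% of genes were. At 2.5 µM 39 were, with 10.1% of genes, at 0.25 µM 33 were, with 8.52%, and at 0.025 µM 35 were, with 7.27%. The medians were 0.61, 0.65, 0.63 and 0.59. MKI67 was then higher by 0.71 ± 0.10, 0.71 ± 0.10, 0.63 ± 0.10 and 0.56 ± 0.10 in the same order. The libraries left out were the lowest of their groups in these same members, and without controls 9 and 16 the controls spread less. The larger counts are thus no independent support for a rise. With all libraries the medians at the 4 doses, from 25 µM down, were 0.75, 0.72, 0.73 and 0.68, and no member had a linear trend over dose. The members thus stood above the controls by a like amount at the lowest and the highest dose. Each dose holds its own 4 of the library numbers, so dose and number cannot be told apart within DDE. The 25 µM count was 0 without library 2 and 0 without library 3 of the DDE group, and 4 without library 4.

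**Figure D5:**
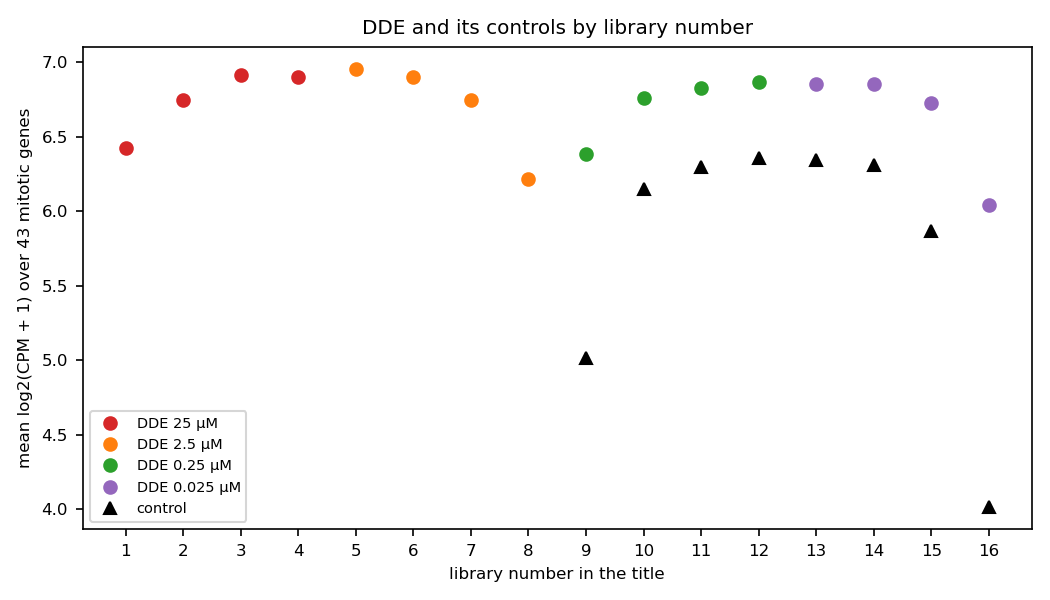
Mean log2(CPM + 1) over 43 members (y axis) by library number (x axis) for DDE at 4 doses (circles) and the controls of the DDE plate (triangles). Libraries 1, 8, 9 and 16 are lowest, and from number 9 on each DDE library lies above the control of the same number.

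The controls used for DDE were labelled water and DDE was labelled DMSO. On plate 3240-AT, which held both solvents, 6 members were lower in water than in DMSO controls, where 1.95% of all genes were: TOP2A (-0.46 ± 0.07), KIF4A, UBE2C, MKI67 (-0.29 ± 0.07), BIRC5 and KIF2C. The water controls of that plate were numbers 39, 40, 47 and 48, and the DMSO controls were 33 to 38 and 41 to 46. Solvent and library number therefore cannot be told apart there. The part of solvent in the DDE values was not tested.

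In DDE at 25 µM 17 of 50 further mitotic genes, 15 of 25 S phase genes and 1 of 12 activators were called higher, and none was called lower. The activator was MYBL2, at 0.88 ± 0.26 (edgeR adjusted p = 0.0432), while FOXM1 was at 0.31 ± 0.16 and RRM2 at 1.39 ± 0.46, neither of them called. CDKN1A stood at 318, 265, 288 and 261 CPM against 325 to 1702 (median 432) in controls, a log2 fold change of -1.29 ± 0.37 (edgeR adjusted p = 0.0375). It was 1 of 2 CDK inhibitors and repressors called lower of 13 tested.

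The other 15 chemicals had no called member at 25 µM. The share of all genes called in either direction was 0.0617% in mercury, 0.00448% in BPA, 0.0179% in BPF, 0% in BPS, 1.38% in MPB, 0.00448% in PPB, 0.0668% in PFDA, 0.00514% in PFNA, 0% in PFOA, 0.0668% in PFOS, 0% in phenanthrene, 0.00469% in DCB_14, 0% in DCP_25, 0.00469% in PCB153 and 0.0235% in PCB187. Their members' medians lay between -0.06 and 0.20, and between 0 and 26 members had an unadjusted p under 0.05. DESeq2 called 2 members over the 15.

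PFDA was the highest of them. All 44 members were above the controls and 26 had an unadjusted p under 0.05, where 1934 of the 19468 genes tested had one. MKI67 stood at 299, 289, 285 and 288 CPM against 210 to 268 (median 244) in the 12 DMSO controls, with a log2 fold change of 0.25 ± 0.06 (edgeR adjusted p = 0.0804). The mean over the members was between 6.84 and 6.95 in these PFDA libraries and between 6.60 and 6.80 in the controls. The ranges did not overlap. At 2.5 µM the PFDA libraries lay between 6.81 and 6.90, again above every control. At 0.25 and 0.025 µM they lay from 6.69 to 6.93 and from 6.60 to 6.93, overlapping the controls. Standing above every control was thus not particular to the highest dose. At 0.25 µM PFDA had 4 called members, all higher, where 0.519% of all genes were: CCNB1 at 528, 470, 419 and 416 CPM against 337 to 407 (log2 fold change 0.31 ± 0.08), CENPF (0.35 ± 0.07), PTTG1, securin (0.39 ± 0.09), and NDC80 of the kinetochore (0.34 ± 0.09). In PTTG1 replicate 1 alone, at 655 CPM, lay above the controls.

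Calls at lower doses elsewhere were few and all higher. Outside DDE the members' median was above 0 in 19 of 20 chemicals at 0.025 and at 0.25 µM, and in 18 of 20 at 2.5 µM. The highest medians at these doses were 0.15, 0.18 and 0.20, and the lowest were -0.01, -0.13 and -0.01. The median of -0.13 was that of PCB153 at 0.25 µM, where 36 of 44 members were below the controls and none was called. Its replicate 3 had a mean log2(CPM + 1) over the members of 5.94, below every control of its plate. The other replicates lay between 6.45 and 6.73. At 25 µM 10 of 20 were above 0. A small rise over the controls was thus shared by most chemicals below 25 µM, with or without calls, and its cause was not tested. In copper at 2.5 µM AURKB (0.45 ± 0.12), UBE2C (0.34 ± 0.08), PSRC1 (0.33 ± 0.10) and BUB3 (0.28 ± 0.08) were called, where 1.41% of all genes were. BUB3 stood at 353, 357, 358 and 353 CPM, above all controls at 244 to 345. In arsenic at 2.5 µM ASPM (0.36 ± 0.10) and UBE2C (0.30 ± 0.08) were called, where 0.906% of genes were, so both were higher at 2.5 µM and lower at 25 µM. In MPB at 2.5 µM KIF11 (0.52 ± 0.14) and BUB1 (0.28 ± 0.08) were called, where 0.265% of genes were. In DDE at 2.5 µM HMMR (1.07 ± 0.23) was called, where 0.23% of genes were. Leaving out replicate 4 of every group gave 30 calls at 2.5 µM, 8 at 0.25 µM and 16 at 0.025 µM, and leaving out replicate 1 or replicate 3 gave 3 at 2.5 µM.

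A linear contrast over the 4 doses, in which the controls take no part, was called falling for 37 members in arsenic, where 15.6% of genes were, for 22 in cadmium, with 4.78%, and for 30 in thiram, with 9.26%. In copper it was called for CENPF, CCNB2 and UBE2C, with 0.671% of genes, and in phenanthrene for ANLN, with 0.139%. Copper libraries of the same number deviated together, and with the replicate number as a block 8 copper members had a falling trend. Without replicate 1, 2 or 4 of each dose no copper member had a trend, and without replicate 1, 2 or 4 ANLN had none in phenanthrene. No member had a rising trend in any chemical. In arsenic, cadmium and thiram the medians at the lower doses lay between 0.01 and 0.16. By median, these members were thus lower at 25 µM alone among the doses given. The lower-numbered cadmium libraries had a mean log2(CPM + 1) over the members of 6.16 at 0.025 µM and 6.20 at 0.25 µM. The lower-numbered controls had 6.31. Replicates 1 and 2 at 0.025 µM and replicate 1 at 0.25 µM lay below every control. The higher-numbered cadmium libraries had 6.57 and 6.61, and their controls 6.54. The cause was not tested.

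Of 10 pairs of chemicals compared at 25 µM, 8 differed in no member by edgeR's test: copper and lead, BPA and BPF, BPA and BPS, BPF and BPS, MPB and PPB, PFNA and PFDA, PCB153 and PCB187, and DCB_14 and DCP_25. The bisphenols BPA, BPF and BPS differ in the bridge between their phenol rings. For MKI67, BPA minus BPS was 0.00 (95% interval -0.17 to 0.17), BPA minus BPF was -0.03 (-0.19 to 0.14) and BPF minus BPS was 0.03 (-0.14 to 0.19). Over the 42 more abundant members the 95% intervals of the 3 bisphenol pairs reached from -0.51 to 0.51.

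PFDA has a longer perfluorinated chain than PFNA. PFNA minus PFDA had a median of -0.11. An unadjusted p under 0.05 was found for 9 members, and for 1061 of the 19468 genes tested. Among the 9 was MKI67, at -0.25 (95% interval -0.40 to -0.09, edgeR adjusted p = 0.585). CCNB1 differed by 0.03 (-0.17 to 0.22). For MKI67, MPB minus PPB was 0.09 (-0.08 to 0.26), PCB153 minus PCB187 was 0.07 (-0.20 to 0.34), DCB_14 minus DCP_25 was -0.02 (-0.29 to 0.25) and copper minus lead was -0.08 (-0.38 to 0.23). These intervals do not show that the members of a pair act alike.

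The changes are set here beside the promoter letters. In arsenic the 30 members with CHR letters near the start had a median log2 fold change of -0.91 and the 8 without had -1.58. Of these 8, CDK1 and TOP2A hold CHR letters further upstream, the nearest at positions -131 and -151. For CDK1 and TOP2A the split is thus by the window searched and not by a lack of CHR letters. CCNA2, CDC25C, AURKB, BUB1, CKAP2 and PSRC1 held no CHR letters in the whole stretch searched. In thiram the medians were -0.59 and -0.86, in cadmium -1.50 and -1.51, and in DDE 0.74 for the 29 tested and 0.80 for the 8 without. CKAP2, whose window holds neither feature, was at -0.12 in arsenic and at -0.78 ± 0.14 in thiram. KIF20A and PIF1, which hold both, were among the lowest in both chemicals. These are descriptions of a few promoters, with no test.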

How the data were processed

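RNA of 402 wells was counted per gene. The counts were deposited as whole numbers, 1 table per library, and the submitters' processing notes name FastQC, MultiQC, STAR, featureCounts and GRCh38, with no versions; of filters and strand handling the sources used here say nothing. The members and lists were chosen with earlier results of these data known. A gene was kept by edgeR's filterByExpr (minimum count 10, minimum total 15). edgeR 4.0.16 (R 4.3.3, limma 3.58.1) fitted all groups of a plate at once after TMM scaling, and the quasi-likelihood test was adjusted over all genes of a comparison by Benjamini-Hochberg. A member was called at an adjusted p under 0.05, and the dispersion was taken from the 5% most abundant genes. CPM used TMM-scaled library sizes, and levels over the members are means of log2(CPM + 1).

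Control wells were put with dosed groups by plate barcode and solvent. Depth was 1.28 to 25.8 M counts per library, and the exact interval for PSRC1 covers counting error only, while intervals of differences between chemicals come from edgeR and include the spread between wells. Values per library are given for MKI67, CCNB1, CDK1, PLK1, TOP2A, CDC20 and BIRC5 where 5 or more members were called at 25 µM, with the 2 largest and 2 smallest called changes, and for each called member where 5 or fewer were. FOXM1, MYBL2, CDKN1A and RRM2 stand for the other lists. Alternatives were RLE scaling, no filter, DESeq2 1.42.0, 2 groups alone, each replicate left out, a term for library number, each number set alone and a replicate block. Chosen after seeing the data were the test of the difference between number sets, the cadmium library with another barcode put in, the DDE end numbers left out at the lower doses, and number sets and left-out replicates for pairs and solvents. Same-numbered libraries of different doses deviated together in copper, lead, mercury and PFOA (every correlation over 0.1, in copper 0.192 or more). The scripts were tested on simulated data.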

Additional observations from a re-analysis of the deposited data

Results flagged for a closer look

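In 5 of 83 groups of 4 to 10 libraries, the mean log2(CPM + 1) over the members had 1 library far from the others, which chance gives in about 1 in 20 groups. They were MPB 2.5 µM replicate 3 at 6.98, PPB 2.5 µM replicate 1 at 6.74, PFNA 0.025 µM replicate 3 at 6.66, PFNA 2.5 µM replicate 4 at 6.77 and DDE 0.025 µM number 16 at 6.04. These are not a ranking by distance: PCB153 0.25 µM replicate 3, at 5.94 with the other replicates between 6.45 and 6.73, was not flagged. Of 31 named members in groups of 4, BIRC5 in arsenic replicate 1, at 128 CPM, and TOP2A in thiram replicate 4, at 182 CPM, lay apart in the same way.

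The change at 25 µM differed between the lower-numbered and the higher-numbered libraries for 6 members in arsenic, 6 in copper and 1 in thiram. Arsenic and cadmium differed directly in 10 members, and arsenic and copper in 34.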

How the results depend on the processing

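The arsenic count of 37 members lay between 30 and 41 and the thiram count of 28 between 23 and 35 under the alternatives run, all lower. The other counts moved more, and the cause was not tested. At 25 µM cadmium gave 13 with the further library in and 7 to 26 with a replicate left out, and between 7 and 33 over all alternatives run. Copper gave 23 in the lower-numbered libraries, 0 in the higher-numbered ones and 0 to 5 with a replicate left out. Lead gave 2 with RLE scaling, 3 by DESeq2, 3 with 2 groups alone, 6 with a number term, 2 and 3 in the number sets, 0 with the further cadmium library in and 0 to 2 with a replicate left out. DDE gave 7 without the filter, 4 with 2 groups alone, 37 without the end numbers and 0 to 11 with a replicate left out. The other 15 chemicals together gave 1 without the filter, 2 by DESeq2, 2 with a number term, 5 and 3 in the number sets and 0 to 1 with a replicate left out.

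At 2.5 µM the 9 became 5 without the filter, 19 by DESeq2, 16 with a number term, 27 and 22 in the number sets, 5 with the further cadmium library, 47 without the DDE end numbers and 3 to 30 with a replicate left out. At 0.25 µM the 4 became 19 by DESeq2, 1 with 2 groups alone, 15 in the lower-numbered set, 37 without the DDE end numbers and 5 to 8 with a replicate left out. At 0.025 µM the 0 became 3 without the filter, 1 by DESeq2, 1 with a number term, 11 and 4 in the number sets, 35 without the DDE end numbers and 0 to 16 with a replicate left out.

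The cadmium trend count of 22 became 9 with the further library and 7 to 18 with a replicate left out, and lay between 7 and 31 over all alternatives run. Copper's 3 became 1 without the filter, 9 with a number term, 8 with the replicate block (4 in the same libraries with no block), 1 with the further cadmium library and 0 to 4 with a replicate left out. Phenanthrene's 1 became 3 without the filter, 2 with a number term, 3 with the replicate block and 0 to 1 with a replicate left out; the others' 0 became 2 with a number term and 2 with the replicate block. With the block arsenic gave 39, cadmium 15 and thiram 32.

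Control differences by number became 21 on 3153-AT and 12 on 3206-AT by DESeq2, and on 3284-AT 1 with RLE scaling, 3 without the filter and 10 by DESeq2. Water against DMSO gave 3 without the filter, 11 by DESeq2 and 1 and 3 in the number sets. Arsenic minus cadmium gave 22 by DESeq2, 4 with a number term, 5 in the lower-numbered set and 4 to 9 with a replicate left out; arsenic minus copper gave 18 in the lower-numbered set and 21 to 37 with a replicate left out. The other pairs gave 1 without the filter, 1 with a number term and 11 and 3 in the number sets. The log2 fold change of HMMR in arsenic turned to 0.0111 in the lower-numbered set.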
